A study of Mus musculus with 14 samples.

Results

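The genes described here encode the heat shock chaperones of the cytosol and mitochondria and the chaperones, sensors and transcription factors of the unfolded protein response of the endoplasmic reticulum (ER). They were chosen by name: 36 listed gene symbols, all of which were found among the 43432 genes of the deposited expression table. By role they comprised 15 cytosolic and mitochondrial heat shock genes, 14 ER chaperones and folding factors, and 7 ER stress sensors and transcription factors. RNA-seq had been performed on lung cells sorted as SiglecF+ and CD11c+, the surface phenotype of alveolar macrophages, and split into MHCII-high and MHCII-low fractions by surface MHC class II. The donors were male 129S1 mice, 10 to 12 weeks old, given intratracheal water or bleomycin (3 U/k in the labels), a DNA-damaging drug used to induce lung injury and fibrosis. The control group held 2 libraries of MHCII-low cells from water-treated mice. The 4 bleomycin groups held 3 libraries each: MHCII-low cells at 2 weeks, MHCII-low cells at 4 weeks, MHCII-high cells at 2 weeks and MHCII-high cells at 4 weeks. No genetic modification is labelled in any group. The labels give no time after water and no MHCII-high control, so every tested comparison with control was made within MHCII-low cells. Where MHCII-high libraries are set beside the controls, MHCII level and treatment cannot be told apart. They also do not say whether libraries of a group came from separate mice, so the p-values below measure the spread between these libraries.

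Misfolded protein in the cytosol frees the transcription factor HSF1, which binds heat shock elements in promoters and induces HSP70, HSP90 and their co-chaperones. Misfolded protein in the ER activates the sensors IRE1, PERK and ATF6, which act through the transcription factors XBP1, ATF4 and cleaved ATF6 to raise ER chaperones, folding enzymes and, under prolonged stress, CHOP. Alveolar macrophages take up and degrade surfactant and debris at the air surface of the lung. The inducible HSP70 genes are also known to respond to handling of cells, including enzymatic dissociation of tissue.

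The promoters of the 2 inducible HSP70 genes, Hspa1a and Hspa1b, are shown because these were the genes that changed. They lie 9951 bases apart on the reverse strand of chromosome 17 (GRCm38), Hspa1b at chr17:34956436-34959238 and Hspa1a at chr17:34969190-34972156. Sequences are those of RefSeq on GRCm38.p6, the 250 bases before the start site, 5′ to 3′ on the gene's strand. Capitals mark a 2-unit heat shock motif, GAANNTTC or TTCNNGAA, searched on both strands.
Hspa1a, chr17:34972157-34972406, reverse strand: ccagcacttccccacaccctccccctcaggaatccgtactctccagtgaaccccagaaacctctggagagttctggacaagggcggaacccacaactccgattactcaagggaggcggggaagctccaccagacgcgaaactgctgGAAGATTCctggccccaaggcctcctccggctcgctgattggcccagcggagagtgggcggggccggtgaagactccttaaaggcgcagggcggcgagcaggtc
Hspa1b, chr17:34959239-34959488, reverse strand: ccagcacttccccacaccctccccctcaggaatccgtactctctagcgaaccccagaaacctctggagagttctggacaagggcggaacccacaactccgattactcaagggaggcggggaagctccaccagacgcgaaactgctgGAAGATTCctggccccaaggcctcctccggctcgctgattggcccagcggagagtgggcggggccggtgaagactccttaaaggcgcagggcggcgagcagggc
The promoters differed at 3 of 250 positions, and each held its motif 96 bases before the start site. Of the 10 heat shock members with a promoter sequence, 7 held the 2-unit motif (Dnaja1, Hspa1a, Hspa1b, Hspb1, Hspd1, Hspe1 and Hsph1), against 12.8% of all 32851 promoters. The units differ: members are counted as genes (28 of all members, with 33 promoters), whereas the share is over single promoters. The longer 3-unit motif, GAANNTTCNNGAA or TTCNNGAANNTTC, contains the 2-unit motif and was found in Hspd1 and Hspe1, which share one promoter region between them, against 0.466% of all promoters.

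ER chaperone promoters carried a different sequence, the ER stress element, searched as CCAAT, any 9 bases and CCACG on both strands. It was present in 7 of the 12 ER chaperone and folding members with a promoter sequence and in 0.113% of all promoters. Members are again counted as genes and the share over single promoters. None of the 10 heat shock members and 6 sensors and factors with a sequence held it. The 30-base windows around the matches are given with the match in capitals. Likeness at CCAAT and CCACG was fixed by the search, and only the 9 bases between them and the flanks could differ. A match that reads CGTGG first lies in reverse orientation.
Hspa5, chr2:34772020-34772049, forward strand: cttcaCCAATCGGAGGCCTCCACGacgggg
Hsp90b1, chr10:86705632-86705661, reverse strand: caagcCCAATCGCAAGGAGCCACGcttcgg
Hsp90b1, chr10:86705527-86705556, reverse strand: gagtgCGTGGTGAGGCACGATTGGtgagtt
Calr, chr8:84847069-84847098, reverse strand: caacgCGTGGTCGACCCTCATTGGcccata
Canx, chr11:50325794-50325823, reverse strand: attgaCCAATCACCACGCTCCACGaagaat
Pdia6, chr12:17266486-17266515, forward strand: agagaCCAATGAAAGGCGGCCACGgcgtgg
Dnajc3, chr14:118937822-118937851, forward strand: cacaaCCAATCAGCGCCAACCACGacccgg
Creld2, chr15:88819515-88819544, forward strand: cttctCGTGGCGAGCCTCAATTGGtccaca
The elements lay 46 bases (Hspa5) to 193 bases (Hsp90b1) before the start site, and Hsp90b1 held 2 of them.

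Values are the deposited normalized counts, which are not divided by gene length. Recovered reads per library ranged from 15106415 to 88059578, and mitochondrial ribosomal RNA took 3.12% to 29.0% of them. Of the 36 members, 35 reached 10 normalized counts in at least 2 libraries and were tested with limma on log2(value + 1) among 17390 genes. The exception was Hspb1, a small heat shock protein, with 0 to 3.4 normalized counts. Siglecf, at 3056 to 9551 normalized counts, and Itgax, which encodes CD11c, at 25185 to 44133, were high in every library. In bulk libraries, fewer cells of a type and less RNA per cell cannot be told apart.

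Divided by exon length, the most abundant members were the constitutive HSP90 Hsp90ab1, at a mean of 16319.7 normalized counts per kilobase over the 14 libraries, and its ER counterpart Hsp90b1, at 10912. Xbp1 followed at 5947, and the ER chaperones Hspa5, Calr, Pdia3 and Canx lay between 5063 and 5765 per kilobase. Group means of Xbp1 ran from 4465 to 7704 per kilobase and those of Hspa5 from 4541 to 7993, so the order among these genes was not resolved. At the low end were Hspe1, the mitochondrial co-chaperonin, at 82.9 per kilobase, Hspa1b at 83.7 and Trib3, a pseudokinase induced by ATF4 and CHOP, at 12.4. The ER folding members ran from 215 (Manf) to 10912 per kilobase, all above the mean of Hspa1a (183). In controls Hspa1a, at 559 per kilobase, exceeded Herpud1 (465), Creld2 (374) and Manf (188). Ern1, which encodes IRE1, was the steadiest member, with its highest library only 1.21 times its lowest.

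**Figure D1:**
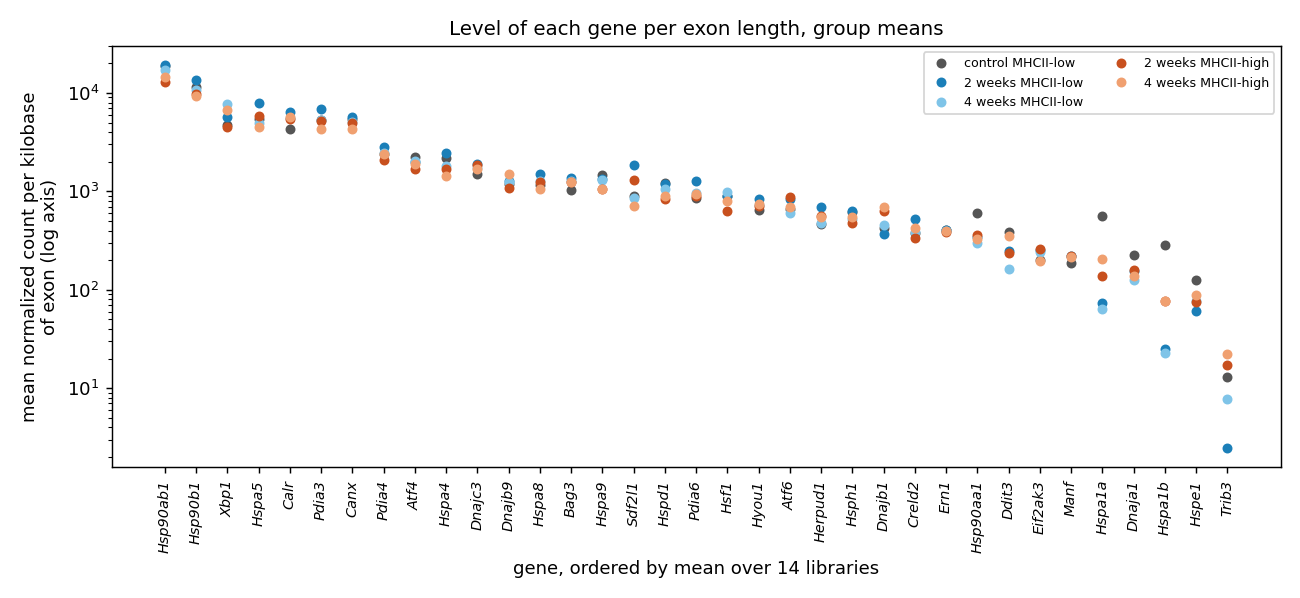
Mean normalized count per kilobase of exon (log axis) for the 35 tested members, 1 point per group, ordered by the mean over 14 libraries. Hsp90ab1 leads at 16319.7 and Trib3 is last at 12.4, and the control points of Hspa1a and Hspa1b stand above those of their bleomycin groups.

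The members that changed against control were the inducible HSP70 genes, both lower after bleomycin. Hspa1a, which encodes a cytosolic HSP70 that binds unfolded protein, had 1480.2 and 1839 normalized counts in the 2 control libraries. In MHCII-low cells it had 152, 362 and 142 at 2 weeks and 127, 76.5 and 369 at 4 weeks. In MHCII-high cells it had 538, 480.0 and 202 at 2 weeks and 414, 254 and 1181 at 4 weeks. All 12 bleomycin libraries lay below both controls, and replicate 3 of the 4-week MHCII-high group came nearest to them. Hspa1b, its near-identical neighbour, had 667 and 929 normalized counts in controls, 82.8, 78.0 and 47.9 in 2-week MHCII-low cells, and 37.7, 16.7 and 139 in 4-week MHCII-low cells. In MHCII-high cells it had 148, 378 and 119.9 at 2 weeks and 148, 119 and 374 at 4 weeks. Again both controls stood above every bleomycin library, and the MHCII-low groups were lowest.

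In 2-week MHCII-low cells against control, 2 of 35 members passed an adjusted p of 0.05 (Benjamini-Hochberg over all genes tested), where 1.91% of all genes tested did; 9 members had an unadjusted p under 0.05 (12.7% of all genes tested). Hspa1a fell by 3.05 on the log2 scale (SE 0.63, adjusted p = 0.0089, limma) and Hspa1b fell by 3.52 (SE 0.73, adjusted p = 0.0093, limma). As means, control was 7.59 times the 2-week MHCII-low group for Hspa1a (1659.55 ± 254, SD, n = 2, against 219 ± 124, SD, n = 3) and 11.5 times for Hspa1b (798 ± 185 against 69.6 ± 18.9). Both calls were lost without control replicate 1 or control replicate 3, each time leaving 1 control library whose spread is assumed to be that of the other groups, with adjusted p up to 0.16 for Hspa1a and 0.20 for Hspa1b.

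At 4 weeks the same 2 members were called against control, where 0.0460% of all genes tested were (8 of 17390); 6 members had an unadjusted p under 0.05 (6.12% of all genes tested). Hspa1a fell by 3.42 (SE 0.63, adjusted p = 0.045, limma) and Hspa1b fell by 4.11 (SE 0.73, adjusted p = 0.039, limma). These 4-week calls lay close to the threshold. Of the 14 fits that each left out 1 library, Hspa1a lost its call in 8 and Hspa1b in 7. For Hspa1a these were the fits without control replicates 1 and 3, 2-week MHCII-low replicate 1, 4-week MHCII-low replicates 1 and 2, 2-week MHCII-high replicates 1 and 2 and 4-week MHCII-high replicate 1. For Hspa1b they were the fits without control replicates 1 and 3, 2-week MHCII-low replicates 1 and 2, 4-week MHCII-low replicates 1 and 2 and 2-week MHCII-high replicate 1. Adjusted p reached 0.60 for both genes, and the log2 difference ranged from -4.05 to -2.92 for Hspa1a and from -4.91 to -3.42 for Hspa1b. With edgeR on recovered reads neither passed (adjusted p = 0.13 and 0.10), and neither passed with the mitochondrial rRNA share as a covariate (0.11 and 0.056). The 2-week and 4-week comparisons use the same control libraries.

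Between the MHCII fractions, Hspa1a and Hspa1b were higher in MHCII-high cells. Over the mean of both times, 2 members passed, where 7.21% of all genes tested did. Hspa1a rose by 1.30 on the log2 scale (SE 0.40, adjusted p = 0.049, limma) and Hspa1b by 1.75 (SE 0.46, adjusted p = 0.021, limma). By time, the log2 differences were 0.91 at 2 weeks and 1.70 at 4 weeks for Hspa1a, and 1.47 and 2.04 for Hspa1b, none past the threshold. The Hspa1a call was lost in 10 of 14 fits leaving out 1 library: control replicates 1 and 3, 2-week MHCII-low replicates 1 and 3, 4-week MHCII-low replicates 1 and 2, 2-week MHCII-high replicates 1 and 2, and 4-week MHCII-high replicates 1 and 3. It was also lost with edgeR (adjusted p = 0.066), DESeq2 (0.076) and TMM scaling before limma (0.056). The Hspa1b call was lost in 4: 2-week MHCII-low replicate 3, 4-week MHCII-low replicate 2, 2-week MHCII-high replicate 2 and 4-week MHCII-high replicate 3, with adjusted p up to 0.079. Without the filter on low values neither passed (0.14 and 0.061). With the mitochondrial rRNA share as a covariate Hspa1a did not pass (adjusted p = 0.12) and Hspa1b did (0.028).

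The values of the pair are not independent. Their longest open reading frames, 1926 and 1929 bases, were 99.4% identical, and 58.8% of the 50-base stretches of the Hspa1a transcript also occurred in Hspa1b, so reads could be assigned to either gene. Hspa1b made up 17.8% to 44.0% of their sum. The summed count was 2147 and 2768 in controls, 190.0 to 439.5 in 2-week MHCII-low cells, 93.2 to 507.5 in 4-week MHCII-low cells, 321.5 to 858 in 2-week MHCII-high cells and 373 to 1554 in 4-week MHCII-high cells. The mitochondrial rRNA share, which also varied by group, was 21.7% and 24.1% in controls, 3.42%, 18.3% and 12.7% in 2-week MHCII-low cells and 3.12%, 23.1% and 5.10% in 4-week MHCII-low cells. The share in MHCII-high cells was 22.5% to 26.2% at 2 weeks and 8.12%, 29.0% and 21.1% at 4 weeks. With this share as a covariate the 2-week calls against control held (adjusted p = 0.018 for Hspa1a and 0.0092 for Hspa1b, limma), whereas both 4-week calls and the Hspa1a call between fractions did not. Fitted as 1 gene, the sum fell by 3.17 at 2 weeks (adjusted p = 0.0044, limma) and fell by 3.61 at 4 weeks (0.020), and rose by 1.44 in MHCII-high cells (0.022). The summed level of 17 immediate early genes known to respond to tissue dissociation was 66486 to 73038 in controls, 52163 to 81733 in 2-week MHCII-low cells and 55954 to 71278 in 4-week MHCII-low cells. Of these 17, 1 passed at 2 weeks against control with limma and with edgeR (Socs3, higher after bleomycin), where 1.91% of all genes tested passed with limma. DESeq2 called 3 (Btg2, Nfkbia and Socs3), and 3 had an unadjusted p under 0.05 with limma (12.7% of all genes tested). At 4 weeks against control 0 passed with limma (0.0460% of all genes tested), edgeR or DESeq2, against 2 at unadjusted p under 0.05 with limma (6.12%). Over both times 6 of the 17 rose in MHCII-high cells (limma, where 7.21% of all genes tested passed), led by Egr1, Fosb and Nr4a1, with summed levels of 56924 to 84137 at 2 weeks and 68766 to 88288 at 4 weeks, beside the rise of Hspa1a and Hspa1b, and their part in that rise was not tested.

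**Figure D2:**
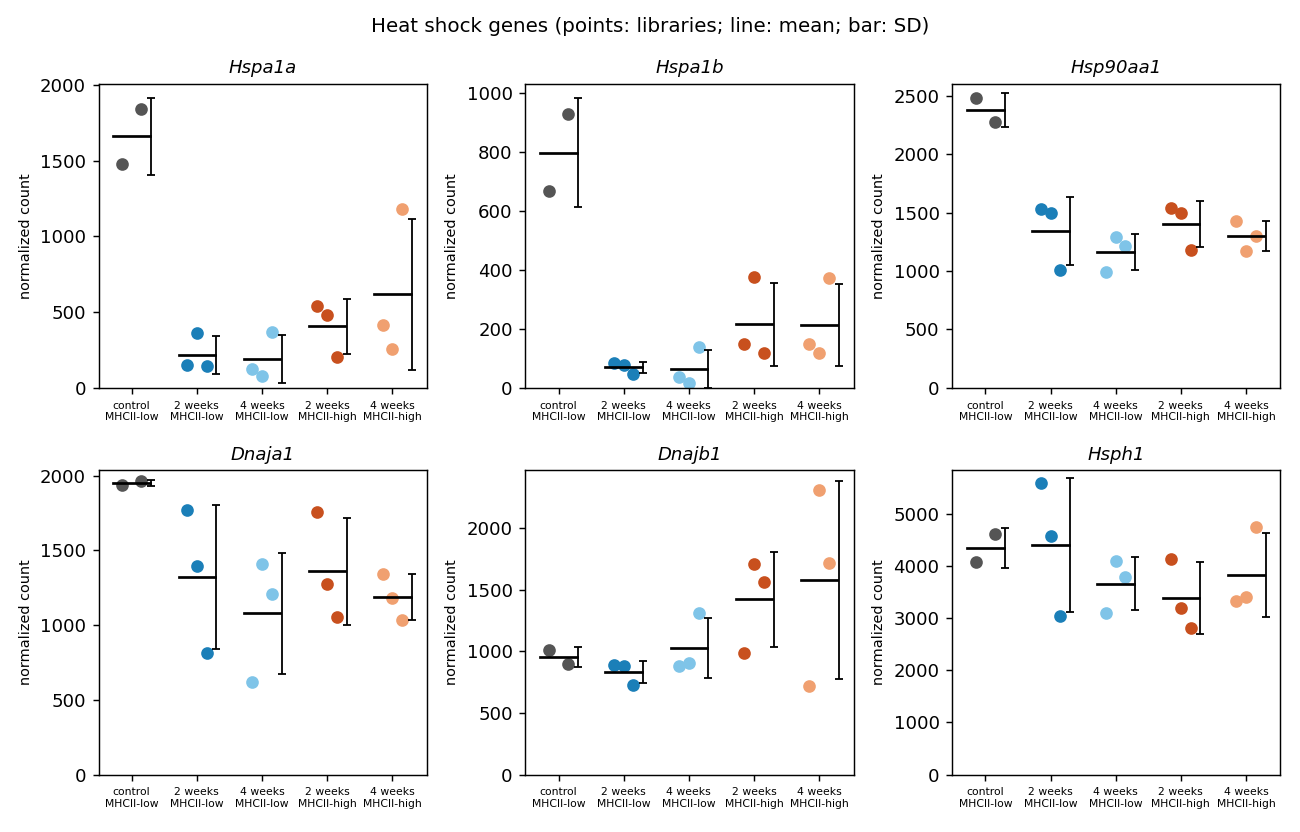
Normalized count of 6 heat shock genes by group, with points for libraries, a line for the mean and a bar for the SD. For Hspa1a, Hspa1b, Hsp90aa1 and Dnaja1 both control points lie above all 12 bleomycin libraries, whereas for Dnajb1 and Hsph1 they lie among them.

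Other genes of the heat shock response did not follow HSP70 in size. Hsp90aa1, the stress-inducible HSP90, had 2483 and 2275 normalized counts in controls. It had 1530.4, 1494 and 1010.4 in 2-week MHCII-low cells, 992, 1293 and 1210.1 in 4-week MHCII-low cells, 1543, 1493 and 1176 in 2-week MHCII-high cells and 1424, 1167 and 1296 in 4-week MHCII-high cells. Both controls exceeded every bleomycin library. The log2 difference from control was -0.85 at 2 weeks (SE 0.23, adjusted p = 0.064, limma) and -1.04 at 4 weeks (SE 0.23, adjusted p = 0.16, limma), and among the alternatives on all libraries only DESeq2 called it (adjusted p = 0.014 and 0.0054). Dnaja1, a J-domain co-chaperone of HSP70, was the fourth member with both controls (1938 and 1963) above all bleomycin libraries (623 to 1768). This pattern, in 4 of 35 members, occurred in 1.81% of all genes tested, and the reverse occurred in 2.01% of them and in 0 members. Of the 4, Hspa1a and Hspa1b are not independent of each other, and Dnaja1 was not called against control with any processing. The pattern was looked at after the values had been seen.

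Hsp90ab1 carried the largest counts of the heat shock genes. It had 49268 and 62780.4 normalized counts in controls, 72466, 57784 and 42557 in 2-week MHCII-low cells, and 49952, 52439 and 51491 in 4-week MHCII-low cells. MHCII-high cells had 42455, 34607 and 39802 at 2 weeks and 42316, 49299.6 and 37982 at 4 weeks. At each time every MHCII-high library lay below every MHCII-low library. The share of all genes tested with this separation was not counted, nor was that of the other separations between groups given below. The log2 difference was -0.54 at 2 weeks (adjusted p = 0.13, limma) and -0.40 over both times (SE 0.13, adjusted p = 0.066, limma). With DESeq2, edgeR or TMM scaling it passed over both times (adjusted p = 0.019, 0.023 and 0.026).

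None of the remaining heat shock members passed with limma. Dnajb1, the co-chaperone that activates HSP70, differed from control by -0.19 at 2 weeks and 0.09 at 4 weeks, and between MHCII-high and MHCII-low cells by 0.61 (adjusted p = 0.11). Hsph1 and Hspa4, nucleotide exchange factors for HSP70, and the constitutive HSP70 Hspa8 differed from control by between -0.30 and 0.37 at either time. Between the MHCII fractions over both times, Hspa4 differed by -0.45 (adjusted p = 0.072, limma) and the mitochondrial HSP70 Hspa9 by -0.33 (adjusted p = 0.091, limma). Both passed with edgeR, DESeq2, TMM scaling and GC trend removal, and DESeq2 also called Dnajb1. Bag3, a co-chaperone in selective autophagy, and Hsf1 itself differed from control by between -0.02 and 0.37 at either time. Between the MHCII fractions over both times, Hsf1 differed by -0.38 (adjusted p = 0.20, limma) and Bag3 by -0.05 (0.88). In the mitochondrial set, Hspa9, Hspd1 (the chaperonin) and Hspe1 differed from control by between -1.01 and -0.06, with Hspe1 at 72.1 to 229 normalized counts giving the widest values. Over all 14 heat shock members tested, the median log2 difference from control was -0.09 at 2 weeks and -0.25 at 4 weeks, against -0.09 and -0.06 over all genes tested.

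**Figure D3:**
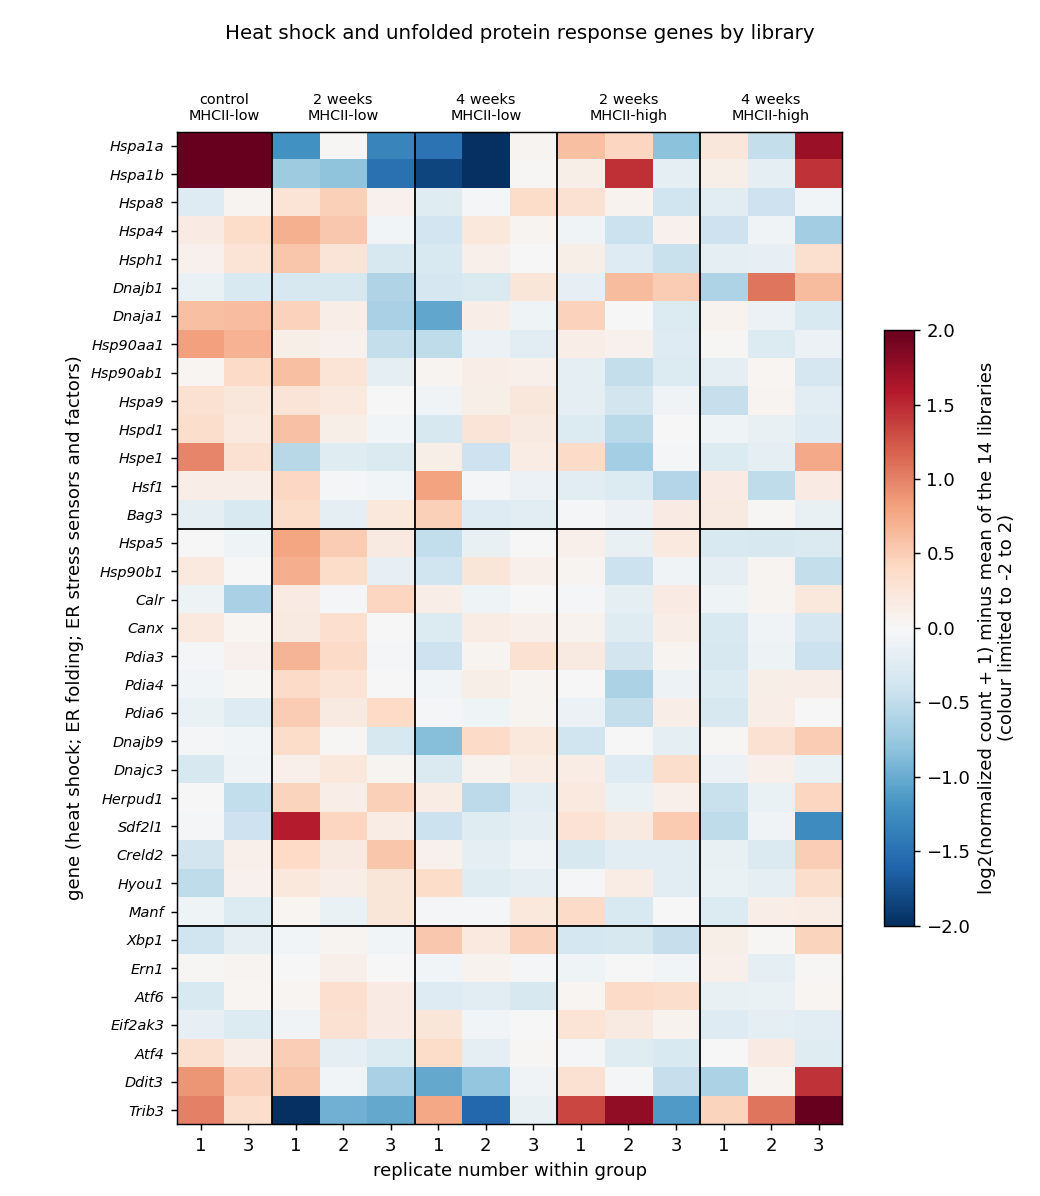
Deviation of log2(normalized count + 1) from the mean of the 14 libraries for the 35 tested members (rows, grouped by role) in each library (columns, grouped by treatment and MHCII level), with colour limited to -2 to 2. Hspa1a and Hspa1b are dark red in the controls, and the ER folding rows are mostly red in the 2-week MHCII-low libraries.

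ER chaperones and folding enzymes had a different profile. All but Dnajb9, which was highest in 4-week MHCII-high cells, had their highest group mean in MHCII-low cells at 2 weeks, but no single one passed with limma in any of the 8 comparisons. With GC trend removal before limma, Calr, a lectin chaperone, passed as higher at 2 weeks against control (log2 difference 0.56, adjusted p = 0.16 without that removal, limma), and its partner Canx passed as lower in MHCII-high cells over both times (-0.21, 0.29 without it). Hspa5, the ER HSP70 known as BiP that also holds the sensors inactive, had 23750.1 and 22315 normalized counts in controls. It had 40846, 33570.4 and 26991 in 2-week MHCII-low cells and 16818, 21421 and 23930.0 in 4-week MHCII-low cells. In MHCII-high cells it had 25423, 21361 and 27264 at 2 weeks and 19195, 18964 and 19452 at 4 weeks. Every 2-week MHCII-low library exceeded both controls and every 4-week library. The log2 difference between 4 and 2 weeks in MHCII-low cells was -0.70 (SE 0.17, adjusted p = 0.051, limma), where 0.857% of all genes tested passed. It passed with DESeq2 (0.0046), TMM scaling (0.044) and GC trend removal (0.030).

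Sdf2l1, an ER cofactor that keeps unfolded protein from aggregating, had 1119 and 855 normalized counts in controls and 3394, 1532 and 1259.8 in 2-week MHCII-low cells. It had 849, 964 and 1003 in 4-week MHCII-low cells, 1387, 1293.5 and 1631 in 2-week MHCII-high cells and 801, 1089 and 476 in 4-week MHCII-high cells. All 6 bleomycin libraries of 2 weeks stood above the controls and above all 6 libraries of 4 weeks, an order whose share among all genes tested was not counted. The log2 difference between 4 and 2 weeks was -0.998 in MHCII-low cells (SE 0.31, adjusted p = 0.21, limma) and -0.94 in MHCII-high cells (SE 0.31, adjusted p = 0.15, limma). Without 2-week MHCII-low replicate 1, the highest library, the MHCII-low difference was -0.57.

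Pdia6, a disulfide isomerase, had 3361 and 3069 normalized counts in controls, 5198, 4167 and 4838 in 2-week MHCII-low cells and 3611, 3453 and 3815 in 4-week MHCII-low cells. MHCII-high cells had 3403, 2634.5 and 4014 at 2 weeks and 2951, 4037 and 3659.9 at 4 weeks. The 3 libraries of 2-week MHCII-low cells were its 3 highest. Its log2 difference was 0.55 from control (SE 0.20, adjusted p = 0.20, limma) and -0.51 between MHCII-high and MHCII-low cells at 2 weeks (SE 0.18, adjusted p = 0.13, limma). Pdia4, another isomerase, had 5786 and 6063 normalized counts in controls, 7849, 7268 and 6004 in 2-week MHCII-low cells, and 5775, 6490.3 and 6219 in 4-week MHCII-low cells. MHCII-high cells had 6040.0, 3864 and 5596 at 2 weeks and 4953, 6481 and 6554 at 4 weeks, so the groups overlapped. Creld2, an ER-stress-induced isomerase-like protein, had 429 and 591 in controls, 725, 627 and 808 in 2-week MHCII-low cells and 585, 485 and 523.5 in 4-week MHCII-low cells. In MHCII-high cells it had 443.5, 477 and 469 at 2 weeks and 495, 450.3 and 779 at 4 weeks, and the 2-week MHCII-high libraries lay below all those of 2-week MHCII-low cells. These 3 genes had the smallest p in the test of whether the MHCII difference changed with time, yet none passed: 0.70 for Creld2, 0.47 for Pdia6 and 0.41 for Pdia4 on the log2 scale, with adjusted p of 0.89 to 0.90 (limma).

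As a group, all 14 ER folding members had a log2 difference above 0 in 2-week MHCII-low cells against control, with a median of 0.36 where the median of all genes tested was -0.09. All 14 lay below 0 from 2 to 4 weeks in MHCII-low cells (median -0.27, all genes 0.03) and in MHCII-high against MHCII-low cells at 2 weeks (median -0.34, all genes 0.08). At 4 weeks 8 of 14 lay above 0 against control, with a median of 0.05. Those 3 one-sided comparisons share the 2-week MHCII-low libraries and are not independent of each other. With limma 0 members of the group passed in any of them, against 5, 4 and 5 at unadjusted p under 0.05 (12.7%, 7.48% and 15.4% of all genes tested). With edgeR 0 passed as well, and DESeq2 called Hspa5 and Sdf2l1 between 4 and 2 weeks. The group's median deviation from the 14-library mean was 0.39, 0.20 and 0.17 in the 3 libraries of 2-week MHCII-low cells and at most 0.08 in any other. Replicate 1 of that group had 15770506 reads and 3.42% mitochondrial rRNA, among the lowest of both, and its part in the result was not tested beyond leaving it out. Without it 13 of 14 members kept the sign of the group median in each of the 3 comparisons, and the medians were 0.36, -0.19 and -0.23.

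**Figure D4:**
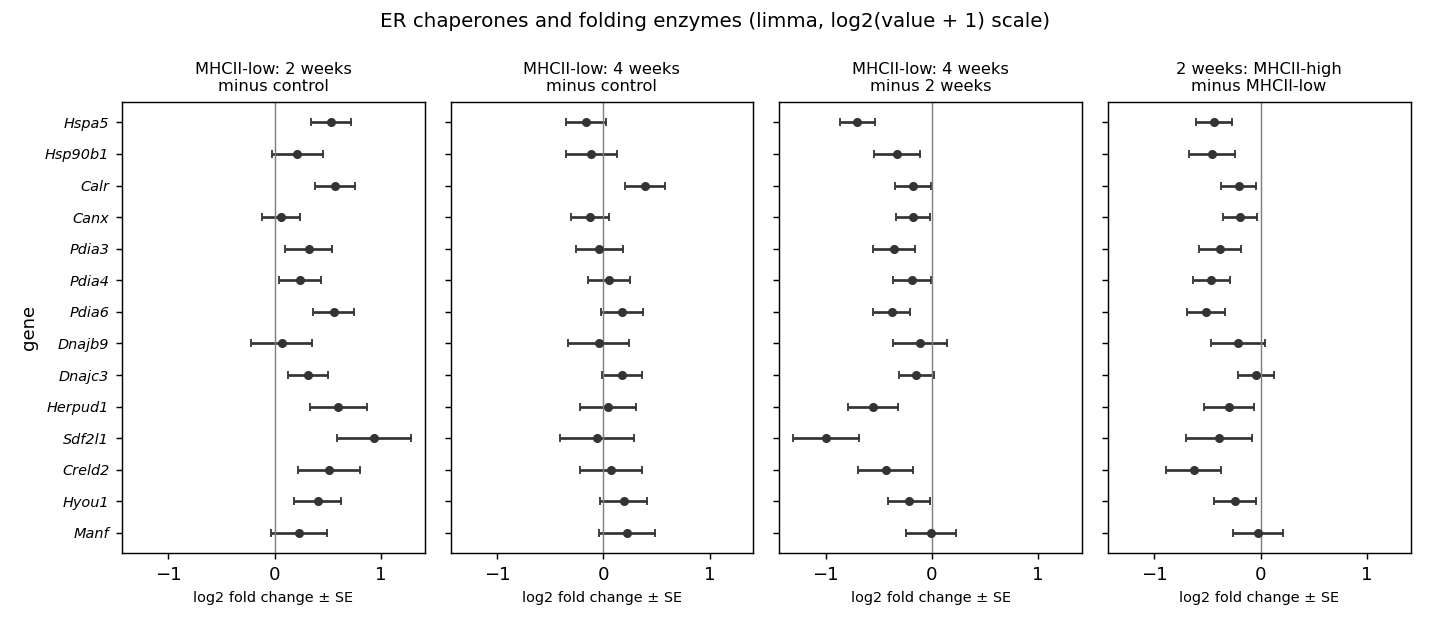
Log2 difference ± SE (limma, log2(value + 1) scale) of the 14 ER chaperones and folding factors in 4 comparisons. All points are right of 0 at 2 weeks against control and left of 0 in the comparisons of 4 with 2 weeks and of MHCII-high with MHCII-low cells at 2 weeks, while at 4 weeks against control they lie on both sides.

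Among the sensors and transcription factors, Xbp1, the factor spliced by IRE1, was higher at 4 weeks in both fractions. It had 14283 and 16717 normalized counts in controls, 18116, 19503 and 18130.5 in 2-week MHCII-low cells and 27521, 21499 and 26045 in 4-week MHCII-low cells. In MHCII-high cells it had 14843, 15029.5 and 13633 at 2 weeks and 20367, 19188 and 25557 at 4 weeks. The 4-week libraries exceeded the 2-week libraries within each fraction, and 4-week MHCII-low cells exceeded the controls. How many of all genes tested had this order was not counted. The log2 difference was 0.57 between 4 and 2 weeks in MHCII-high cells (SE 0.15, adjusted p = 0.068, limma), 0.42 in MHCII-low cells (SE 0.15, adjusted p = 0.34, limma) and 0.69 in 4-week MHCII-low cells against control (SE 0.17, adjusted p = 0.22, limma). None passed with limma or edgeR, whereas DESeq2 called the first (0.0070) and the last (0.015), and GC trend removal the first (0.037). Between the MHCII fractions over both times Xbp1 differed by -0.28 (adjusted p = 0.12, limma), which passed narrowly with edgeR (0.049) and with TMM scaling (0.05 after rounding). These gene counts do not separate spliced from unspliced Xbp1.

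Atf6, a sensor that is cleaved to a transcription factor, had the opposite order in time. It had 5453 and 6879.5 normalized counts in controls, 6900.2, 8502 and 7508 in 2-week MHCII-low cells and 5645, 5743 and 5361 in 4-week MHCII-low cells. MHCII-high cells had 6907, 8755 and 8585 at 2 weeks and 6067, 6133 and 6874 at 4 weeks. In both fractions the 4-week libraries lay below those of 2 weeks, with log2 differences of -0.45 (SE 0.15, adjusted p = 0.30, limma) in MHCII-low cells and -0.34 (SE 0.15, adjusted p = 0.32, limma) in MHCII-high cells.

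Atf4, the factor translated when PERK is active, had 4134.5 and 3630.4 normalized counts in controls, 4678.5, 2909 and 2759 in 2-week MHCII-low cells and 4278, 2911 and 3373 in 4-week MHCII-low cells. It had 3239.5, 2793 and 2692 in 2-week MHCII-high cells and 3297, 3712 and 2804 in 4-week MHCII-high cells, and all groups overlapped in range except that both controls lay above the 2-week MHCII-high libraries. Ddit3, which encodes CHOP, had 763 and 567 in controls, 606, 398 and 263 in 2-week MHCII-low cells and 201.5, 240.2 and 391 in 4-week MHCII-low cells. In MHCII-high cells it had 508, 399 and 299 at 2 weeks and 266, 427 and 1127 at 4 weeks. Both controls exceeded all 4-week MHCII-low libraries, with a log2 difference of -1.30 (SE 0.48, adjusted p = 0.68, limma), and the highest value was in 4-week MHCII-high replicate 3, the library that also had the most Hspa1a after bleomycin. Trib3 rested on 0 to 88 reads per library and was widest in spread, from 0 in 2-week MHCII-low replicate 1 to 81.5 normalized counts in 4-week MHCII-high replicate 3. Eif2ak3, which encodes PERK, ranged from 1038 to 1546.

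**Figure D5:**
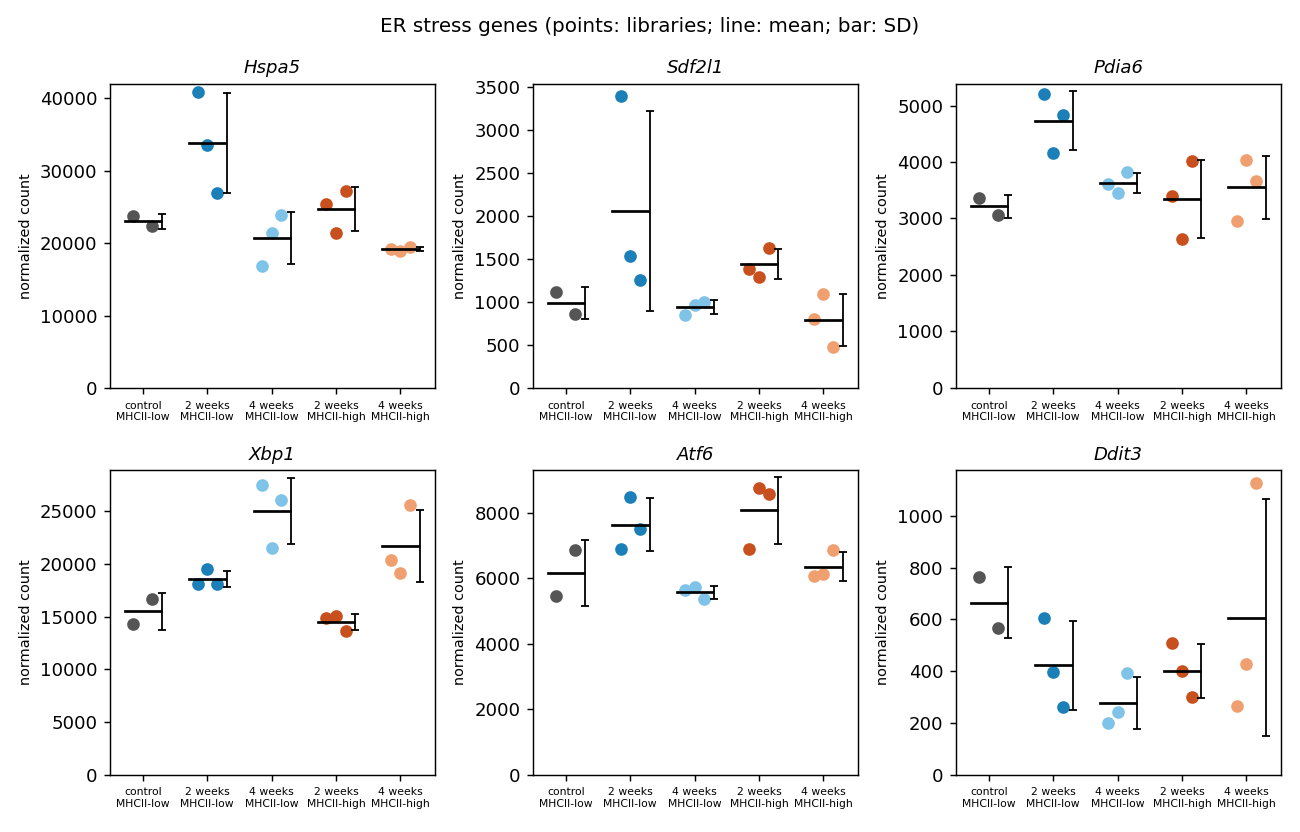
Normalized count of 6 ER stress genes by group, with points for libraries, a line for the mean and a bar for the SD. Hspa5, Sdf2l1 and Pdia6 are highest in 2-week MHCII-low cells, Xbp1 is higher and Atf6 lower at 4 than at 2 weeks, and 1 library of 4-week MHCII-high cells reaches 1127 for Ddit3.

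For the comparisons in which limma called 0 members, the counts were as follows. Between MHCII-high and MHCII-low cells, 13 members had an unadjusted p under 0.05 at 2 weeks (15.4% of all genes tested, 2.87% after adjustment) and 3 did at 4 weeks (15%, 2.50% after adjustment). Of those at 2 weeks, edgeR called 0 and DESeq2 called Hsp90ab1. Both called 0 at 4 weeks. From 2 to 4 weeks, 6 members in MHCII-low cells (7.48%) and 5 in MHCII-high cells (14%, 1.07% after adjustment) had an unadjusted p under 0.05, with 0 calls by edgeR. DESeq2 called Hspa5 and Sdf2l1 in the former and Xbp1 in the latter. No member had an unadjusted p under 0.05 for a change of the MHCII difference with time (5.68% of all genes tested, 0% after adjustment, limma), and neither edgeR nor DESeq2 called one. Of the 13 members at 2 weeks, Trib3, Dnajb1 and Hspa1b were higher in MHCII-high cells and the rest lower. Over both times 14 members had an unadjusted p under 0.05 (21.2% of all genes tested). Of these, Hspa1a, Hspa1b, Dnajb1 and Trib3 were higher and the rest lower. Counted whatever their p, 26 of 35 members were below 0 at 2 weeks and 25 of 35 over both times. The share of all genes tested below 0 was not counted. Their median log2 difference was 0.08 at 2 weeks and 0.02 over both times, or 0.01 and -0.05 with TMM scaling.

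Other genes of the same pathways were compared by list. Among 37 further cytosolic chaperones and co-chaperones, 4 changed between MHCII-high and MHCII-low cells over both times (limma, where 7.21% of all genes tested passed): the HSP40 Dnajb4 rose by 1.498 on the log2 scale and the ribosome-associated Hspa14 rose by 0.74, while Hspa12a fell by 0.55 and the HSP90 co-chaperone Fkbp4 fell by 0.55 (adjusted p = 0.00071, 0.0089, 0.034 and 0.039, limma). Fkbp4, the fourth by p, was named after its values had been seen. Dnajb4 had 158 ± 43.1 and 168 ± 72.8 normalized counts in MHCII-low cells at 2 and 4 weeks and 529.8 ± 146 and 385 ± 64.9 in MHCII-high cells (SD, n = 3 each). The calls of Hspa12a and Fkbp4 were lost in 8 and 10 of the 14 fits that left out 1 library. For Hspa12a these were 2-week MHCII-low replicates 1, 2 and 3, 4-week MHCII-low replicates 2 and 3, 2-week MHCII-high replicates 1 and 2 and 4-week MHCII-high replicate 3. Fkbp4 kept its call only without 2-week MHCII-low replicates 2 or 3 and 4-week MHCII-high replicates 1 or 2. The list's median was -0.24, with 27 of 37 below 0, against a median of 0.02 over all genes tested.

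Of 16 further regulators of the unfolded protein response, 3 passed between the MHCII fractions over both times (limma, where 7.21% of all genes tested passed). At 2 weeks 1 passed (Tmbim6, 2.87% of all genes tested), a call lost in 10 of the 14 fits leaving out 1 library. At 4 weeks 0 passed (2.50%). Over both times Ppp1r15a, which encodes the phosphatase subunit GADD34 that restarts translation, rose in MHCII-high cells by 1.07 (adjusted p = 0.0055, limma). The ER membrane protein Tmbim6 fell by 0.63 (0.0023), and the ER-bound factor Creb3 fell by 0.63 (0.047), a call that was lost in 11 of the 14 fits leaving out 1 library, all but those without 2-week MHCII-low replicate 2, 2-week MHCII-high replicate 3 and 4-week MHCII-high replicate 1. Among 24 tested targets of ATF4, 1 passed with limma, Slc7a11, the cystine transporter. It was called between fractions over both times (where 7.21% of all genes tested passed) and at 4 weeks (2.50%). It was also called at 2 weeks against control (1.91%) and from 2 to 4 weeks in MHCII-low (0.857%) and MHCII-high cells (1.07%). The last of these calls was lost in 11 of the 14 fits leaving out 1 library. DESeq2 also called Atf3, Ddit4 and Phgdh between fractions over both times, and Atf3 at 4 weeks. Slc7a11 averaged 739.5 ± 76.8 (SD, n = 2) normalized counts in controls. At 2 and 4 weeks it averaged 2001 ± 333 and 562 ± 242 in MHCII-low cells, and 3646 ± 426 and 1618 ± 588 in MHCII-high cells (SD, n = 3 each). Slc7a11 rose by 1.43 at 2 weeks against control (adjusted p = 0.026, limma), fell by 1.93 from 2 to 4 weeks in MHCII-low cells (0.0011), and rose by 1.22 in MHCII-high cells over both times (0.00068). The call at 2 weeks against control was lost without either control or any of the 3 libraries of 2-week MHCII-low cells. The median of the 24 targets was -0.25 at 2 weeks against control.

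No gene of ER-associated degradation (18 tested), of other ER folding and translocation (28) or of mitochondrial protein quality control (11) passed with limma in any comparison. Between the MHCII fractions over both times, edgeR and DESeq2 each called P4hb, Wfs1 and Lonp1. At 2 weeks against control, 17 of 18 degradation genes lay above 0 (median 0.36, 5 at unadjusted p under 0.05) and so did 24 of 28 folding and translocation genes (median 0.24, 4 at unadjusted p under 0.05). With edgeR 0 of these passed, and DESeq2 called the translocon subunit Ssr2. At 4 weeks 15 of 18 and 19 of 28 were still above 0 against control, with medians of 0.24 and 0.18 and 3 and 5 at unadjusted p under 0.05, and 0 passed with edgeR or DESeq2. The mitochondrial list had medians of -0.04 at 2 weeks and 0.05 at 4 weeks with 0 at unadjusted p under 0.05 and 0 calls by edgeR or DESeq2.

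Markers of several other cell types moved with the MHCII fractions (limma, where 7.21% of all genes tested passed over both times). Over both times 0 of 3 eosinophil, 0 of 4 neutrophil, 0 of 2 T cell and 0 of 5 endothelium and fibroblast markers were called. Monocyte-derived macrophage markers summed to 54443 to 66072 normalized counts in MHCII-high cells of 2 weeks and 32088 to 38899 in those of 4 weeks, against 28844 to 32588 and 17360.0 to 21953 in MHCII-low cells and 15574 to 18651 in controls, and 6 of 9 were called higher over both times. Dendritic cell markers summed to 732 to 1853 in MHCII-high libraries and at most 184 in all others (5 of 6 called, Cd209a at 0 in both MHCII-low bleomycin groups). Plasma and B cell markers summed to 871 to 4379 in MHCII-high libraries and 95.6 to 2327 in MHCII-low ones, with 5 of 7 called and Mzb1 at 0 in every MHCII-low library. Alveolar type 2 markers summed to 4662 to 12737 against 1597 to 4631.5 (4 of 7 called), and 9 of 12 alveolar macrophage markers were called lower in MHCII-high cells. In 2-week MHCII-low cells against control, where 1.91% of all genes tested passed, 6 of 9 monocyte-derived macrophage markers were called higher. So were 2 of 7 alveolar type 2 markers, and of 12 alveolar macrophage markers 1 was called higher and 1 lower. Alveolar macrophage markers summed to 397229 to 424860 in controls and 538576 to 624888 in 2-week MHCII-low cells. The 2 club cell markers summed to 9091 to 19091 in controls, 2261 to 8030 in MHCII-low cells at 2 weeks and 19513 to 25104 in MHCII-low cells at 4 weeks. In MHCII-high cells they summed to 174.6 to 5155 at 2 weeks and 3444 to 7087 at 4 weeks, with 1 of 2 called lower over both times (Scgb1a1). Between 4 and 2 weeks in MHCII-low cells, where all ER folding members lay below 0, the log2 differences were 2.66 for Scgb3a2 and 2.41 for Scgb1a1 (adjusted p = 0.13 and 0.19, limma). In that comparison all 9 monocyte-derived macrophage markers lay below 0 (median -1.92, 1 called lower). So did 4 of 5 endothelium and fibroblast markers (median -4.03, 1 called lower). Of 12 alveolar macrophage markers 5 lay above 0 and 7 below, with 2 called higher and 1 lower (0.857% of all genes tested passed). The part of these cells in the values of Hspa1a, Hspa1b and the ER folding genes was not tested.

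Some members are less certain as single genes. The strand setting of the counting is not given in the sources used here, and 15 of 36 members overlap another annotated gene, such as Hspd1 and Hspe1 with each other over 112 bases on opposite strands, Ddit3 with Mars over 68 bases and Manf with the larger Vprbp. Named pseudogenes of Hspe1, Hspd1, Hspa9, Calr and Dnaja1 averaged at most 31.5 normalized counts over the 14 libraries, the highest being one of Hspe1, whose own mean was 122. Hspa1a overlaps the opposite-strand gene Gm20481, which was at 0 in every library.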

How the data were processed

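The deposited table gives, per the file headers, normalized counts for 43432 genes, a signal normalized by the authors, with GC percent and exon length (other annotation) as deposited by the authors. The submitters' processing notes name STAR, DESeq2 and mm10 without stating their roles. Per the labels, cDNA was amplified and libraries were made by transposase tagging with no molecular identifiers described. All values tested were whole multiples of 1 read within rounding (0.05), so reads were recovered for the count tests. Low-count genes thus carry the larger counting error.

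Log2(value + 1) was fitted over all 14 libraries with limma 3.58.1 (mean-variance trend, R 4.3.3) for the 17390 genes that reached 10 normalized counts in 2 or more libraries. Contrasts gave 8 comparisons, with Benjamini-Hochberg adjustment over all genes and a threshold of 0.05. Alternatives were edgeR 4.0.16 and DESeq2 1.42.0 on recovered reads, a pseudocount of 5, no filter, TMM scaling, a mitochondrial rRNA covariate, GC trend removal, a replicate block, leaving out each library and summing Hspa1a with Hspa1b. The script was tested on simulated data. Members and gene lists were chosen with earlier results of these data known. Values are given in every library for members past the threshold, for the 3 smallest p in each comparison and for Hspa1a, Hspa1b, Hspa5, Xbp1, Atf4 and Ddit3, and list genes are up to 3 per list by p, plus defining markers. RefSeq promoters matched 28 of 36 members, and the 2-unit motif search was added after the 3-unit motif had been searched. Deposited gene spans equalled those of GENCODE on GRCm38 for 31 of 36 members and overlapped for all.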

Additional observations from a re-analysis of the deposited data

How the results depend on the processing

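With other processing, all log2 differences of named genes that passed kept their direction. Members called between MHCII-high and MHCII-low cells over both times (main count 2) numbered 0 without the low-value filter, 5 with edgeR, 6 with DESeq2, 5 with TMM scaling, 5 with GC trend removal, 1 with the mitochondrial rRNA covariate, 1 with Hspa1a and Hspa1b summed, and 0 to 4 when 1 library was left out. At 2 weeks against control (main count 2) they numbered 3 with DESeq2 (with Hsp90aa1), 3 with GC trend removal (with Calr), 1 with the pair summed and 0 to 2 with 1 library left out. At 4 weeks against control (main count 2) they numbered 0 with edgeR or the covariate, 1 without the filter, with GC trend removal or with the pair summed, 4 with DESeq2 and 0 to 2 with 1 library left out. Where the main count was 0, MHCII-high against MHCII-low cells gave 1 with DESeq2 and 0 to 1 with 1 library left out at 2 weeks, and 0 to 2 with 1 library left out at 4 weeks. From 2 to 4 weeks, MHCII-low cells gave 2 with DESeq2, 1 with TMM scaling or GC trend removal and 0 to 1 with 1 library left out, and MHCII-high cells gave 1 with DESeq2 or GC trend removal. Summing made 1 gene of the 2 called members, and that gene passed in each comparison with a main count of 2. The cause of the other changes was not tested. GC trend removal moved the median of all genes by 0.14 at 2 weeks against control and by 0.12 in the interaction of MHCII level and time. Over all genes, calls between MHCII fractions (1254 over both times, 499 at 2 weeks, 434 at 4 weeks) numbered 2122, 1055 and 898 with DESeq2, 500 and 207 (the first 2) with the covariate, and 316 and 282 (the last 2) without the filter. Against control (332 at 2 weeks, 8 at 4 weeks) they numbered 660 and 77 with DESeq2 and 213 and 2 with the covariate, and at 4 weeks 65 without the filter, 2 with edgeR and 16 with the block. From 2 to 4 weeks (149 in MHCII-low, 186 in MHCII-high cells) they numbered 322 and 638 with DESeq2, and in MHCII-high cells 112 with edgeR and 103 without the filter. The interaction had 0 and, with DESeq2, 56. Leaving out 1 library gave 203 to 624 between fractions at 2 weeks, 266 to 480 at 4 weeks, 127 to 406 and 1 to 17 against control, and 95 to 183 and 64 to 299 from 2 to 4 weeks. Over both times 870 of the calls between fractions were higher and 384 lower, against 767 and 634 with TMM scaling; with GC trend removal 378 of 587 calls at 2 weeks were higher, against 398 of 499, and 124 of 257 from 2 to 4 weeks in MHCII-high cells, against 54 of 186. The labels do not say whether MHCII-high and MHCII-low libraries with the same replicate number were paired. Deviations of such libraries of the same time correlated at 0.01 to 0.11, with 1 of 6 pairs over 0.1. With 3 libraries per group these correlations cannot tell whether the numbers pair the libraries. With a block for libraries of the same number and time, 1 member was called between MHCII fractions at 4 weeks (Hspa1a). Over both times 3 were called (Hsp90ab1, Hspa1a and Hspa1b). For comparisons with control and between times, the block was instead the replicate number shared by all groups, which is not that pairing. With it 1 member was called at 4 weeks against control (Hspa1b). The control group of 2 libraries limits every comparison with it.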
